A study of Mus musculus with 18 samples.

Results

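The report covers 10 genes that are known targets of the transcription factor p53 (Cdkn1a, Ccng1, Mdm2, Phlda3, Aen, Zmat3, Eda2r, Trp53inp1, Polk and Plk2) in mouse liver. They were picked by gene symbol and all 10 were found among the 19057 genes of the table. Earlier results of the same libraries were known when the 10 were put together, so their differences between groups are described here without a test. The liver RNA came from male ICR mice, an outbred stock, at 10 weeks of age, with 6 groups of 3 libraries. Con mice had the regular diet and saline. HS mice had a high-fat diet and a single injection of streptozotocin (STZ), a combination used to model type 2 diabetes. The injection was given weeks before the livers were taken, so the values describe a late time after the drug. A10-FMT and Con-FMT mice had the same diet and STZ and were also given gut microbiota by mouth, taken from the small intestine of donors dosed with 10 mg/kg alginate oligosaccharide (AOS) or of control donors. Donor contents were pooled before transfer. The labels alone describe the A10 group (10 mg/kg AOS) and the HS+A10 group (high-fat diet, STZ and 10 mg/kg AOS). STZ was therefore given in 4 groups (HS, HS+A10, A10-FMT and Con-FMT, 12 libraries) and not in 2 (Con and A10, 6 libraries). Every STZ group also had the high-fat diet, so the effects of the drug and of the diet cannot be told apart. The sources used here do not say how the 3 libraries of a group relate to animals, and the errors given measure the spread between libraries.

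p53 is held at a low level in unstressed cells, mainly because MDM2 marks it for degradation. DNA damage and other stresses stabilize it, and it then switches on genes that stop the cell cycle, start cell death, repair DNA or act back on p53 itself. It is controlled mostly at the level of the protein, so the mRNA of its targets is a common readout. STZ enters cells through the glucose transporter GLUT2, which beta cells and hepatocytes both carry, and it alkylates DNA.

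p53 binds DNA as a pair of half-sites, each of 10 bases, with purines, then a central C, A or T, A or T, G, and then pyrimidines. This consensus reads the same on both strands. The RefSeq promoter sequences of GRCm38.p6, which run from 250 bases before to 50 bases after each annotated start, held 8 of the 10 genes. Zmat3 and Trp53inp1 had no entry. A perfect half-site occurred in the promoter of 5 of these 8 genes (Cdkn1a, Aen, Mdm2, Ccng1 and Polk), against 9.55% of all 27025 genes with an entry. A pair of perfect half-sites with at most 13 bases between them occurred in 0.074% of those genes and, among the 8, in Cdkn1a alone. A match is a description of the letters and no evidence of binding. The Cdkn1a sequence is shown because no other held the pair and because Cdkn1a departs from the other genes below. The pair lies at -73 and -51 from the upstream annotated start of Cdkn1a, 12 bases apart. The promoter of its downstream annotated start (chr17:29093519-29093818) held no perfect half-site. The sequence shown covers the 250 bases before the upstream start (GRCm38.p6, chr17:29090729-29090978, plus strand), with the half-sites in capitals. The 10 bases that follow the second half-site directly differ from the consensus at 1 position.
Cdkn1a: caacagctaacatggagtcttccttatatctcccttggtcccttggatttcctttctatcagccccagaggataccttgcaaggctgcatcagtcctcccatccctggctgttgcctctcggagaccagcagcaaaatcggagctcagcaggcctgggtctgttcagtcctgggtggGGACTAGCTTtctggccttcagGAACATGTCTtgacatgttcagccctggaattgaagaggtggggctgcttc

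The other half-sites are shown with 10 bases on each side, so that their letters can be set beside those of Cdkn1a. Those of Mdm2 and Ccng1 lie at -186 and -185 from the start on the minus strand. The match of Aen lies at +10 and at -121 from its annotated starts on the plus strand, and that of Polk at -231 from a start inside the gene, on the minus strand.
Mdm2 (chr10:117710935-117710944): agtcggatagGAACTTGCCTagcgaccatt
Ccng1 (chr11:40755462-40755471): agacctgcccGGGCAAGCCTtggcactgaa
Aen (chr7:78895937-78895946): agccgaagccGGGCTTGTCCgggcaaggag
Polk (chr13:96519409-96519418): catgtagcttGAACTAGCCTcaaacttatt
The promoters of Phlda3, Eda2r and Plk2 held no perfect half-site in this window.

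All values are RPKM, read numbers corrected for the length of the gene and for the size of the library, as deposited. The sums over all genes lay between 692818 and 806937 RPKM per library. The steps between low values of 66 genes put the relative depth of the libraries between 0.952 and 1.06, with HS lowest, but the number of reads is unknown and no counting error can be given. Con replicate 3 and A10 replicate 3 stood apart, since their value lay between those of the other 2 libraries of their group for 90.9% of 1026 genes and 90.6% of 743 genes that differed by more than 1.5-fold, against 34.4% to 71.7% for the other libraries. In Con-FMT replicate 3, genes of pancreatic acinar cells made up 2.44% of the RPKM sum, against at most 0.00667% elsewhere. RNA was taken from whole tissue, in which fewer cells of a type and less RNA per cell cannot be told apart. Differences are given with a standard error from the spread within groups. It is pooled over the 6 groups, so a gene has the same error in each comparison of 2 groups. The differences are those of log2(RPKM + 1), a scale that understates differences of genes below about 1 RPKM. For the 10204 genes whose mean reached 1 RPKM the median of this difference was 0.14 between HS and Con and -0.16 between A10-FMT and HS, so that part of any difference of the genes below is shared by most genes of the liver.

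In 5 of the 10 genes (Ccng1, Mdm2, Phlda3, Aen and Eda2r) every library from mice given STZ lay above every library from mice not given it. Of the 9 genes that passed the filter 4 showed this, as did 1.61% of all genes tested, while 1.05% showed the opposite. Eda2r did not pass. Phlda3 and Zmat3 passed only through groups given STZ, since their means were 0.233 and 0.660 RPKM in Con and 0.140 and 0.640 in A10. Polk leaned on those groups as well, with means of 0.853 RPKM in Con and 1.04 in A10, around the filter of 1 RPKM. The genes were chosen with earlier results known, so nothing is read from the count of 4. After scaling the libraries to 1 common median, the 5 genes were Ccng1, Phlda3, Aen, Eda2r and Polk, and 1.56% of all genes tested were separated in this direction. Cdkn1a, Trp53inp1, Plk2 and Zmat3 did not separate in either form. The summed level of 7 stellate cell markers, none of them at 0 in any library, was split by STZ as well, at 15.14 to 44.14 RPKM in the 12 STZ libraries and 11.54 to 14.28 in the 6 others, and its part in the values of the p53 targets was not tested. The 10 genes thus did not move as a block, and they are taken below by what they do.

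**Figure D1:**
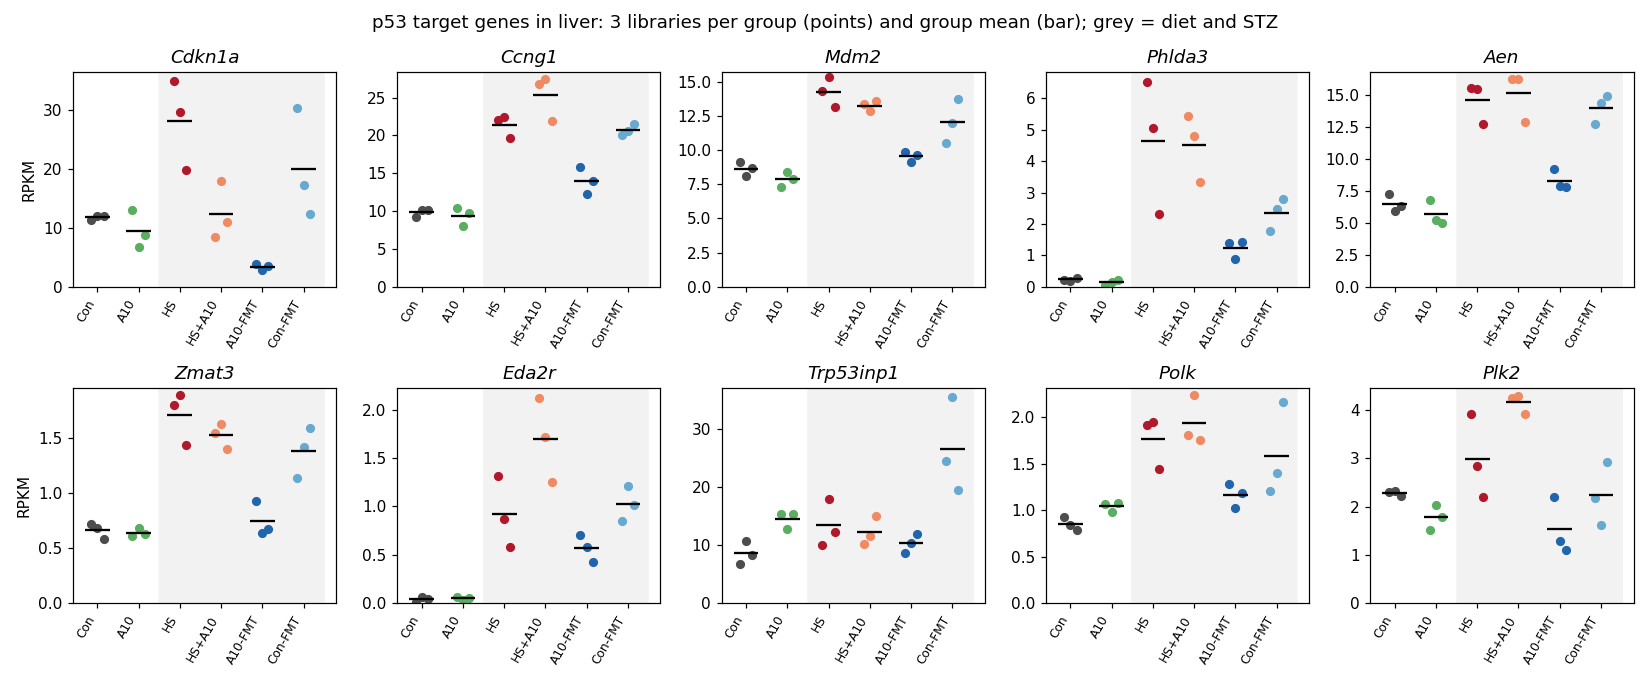
RPKM (y axis, from 0) of the 10 p53 target genes in each library (points) of the 6 groups (x axis), with the group mean as a bar and the 4 groups given the high-fat diet and STZ on grey. Phlda3 and Eda2r stay below 0.3 RPKM in all 6 libraries of Con and A10, and the lowest Cdkn1a values, 2.89 to 3.82 RPKM, are those of A10-FMT.

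Among the genes that feed back on p53, Mdm2 (chromosome 10, 117688875 to 117710758, minus strand, GRCm38) encodes the ubiquitin ligase that p53 induces and that in turn removes p53. Mdm2 was at 9.10, 8.11 and 8.71 RPKM in Con, 7.30, 8.40 and 7.92 in A10, 14.31, 15.33 and 13.16 in HS, 13.35, 12.84 and 13.61 in HS+A10, 9.89, 9.16 and 9.64 in A10-FMT, and Con-FMT had 10.49, 12.01 and 13.77. The HS libraries were all above the Con libraries, by 0.66 ± 0.08 (SE, n = 3 per group), and those of HS+A10 all above A10, by 0.69 ± 0.08. A10-FMT lay just above Con, with 9.16 RPKM as its lowest library against 9.10 as the highest of Con, a gap that scaling to the same median closed.

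Ccng1 (chromosome 11, 40748552 to 40755311, minus strand) encodes cyclin G1, which recruits a phosphatase to MDM2. Ccng1 was at 9.25, 10.12 and 10.12 RPKM in Con, 10.40, 8.05 and 9.73 in A10, 21.98, 22.36 and 19.66 in HS, 26.85, 27.42 and 21.92 in HS+A10, 15.79, 12.23 and 14.00 in A10-FMT, and Con-FMT had 20.02, 20.53 and 21.50. The ratio of the means of HS and Con was 2.17, and that of HS+A10 and A10 was 2.70. A10-FMT, at 14.0 RPKM on average, stood between Con and the other 3 STZ groups and overlapped none of them.

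Trp53inp1 (chromosome 4, 11156431 to 11174379, plus strand) encodes a stress protein that enhances p53 activity and takes part in autophagy. Its values were 6.66, 10.68 and 8.28 RPKM in Con, 15.26, 12.76 and 15.30 in A10, 9.93, 17.89 and 12.30 in HS, 10.15, 11.48 and 14.96 in HS+A10, 8.61, 10.35 and 11.92 in A10-FMT, and Con-FMT had 24.49, 35.56 and 19.38. It did not follow STZ. The 3 Con-FMT libraries were above all 15 others, and the A10 libraries were above all those of Con, by 0.71 ± 0.25.

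The genes of growth arrest, Cdkn1a and Plk2, had different patterns. Cdkn1a (chromosome 17, 29090976 to 29100727, plus strand) encodes p21, which blocks cyclin-dependent kinases. It shares exonic bases with a gene on the other strand, and since the strand of the reads is not stated, its values are uncertain to that extent. Cdkn1a was at 11.26, 11.94 and 12.10 RPKM in Con, 13.12, 6.73 and 8.78 in A10, 34.90, 29.72 and 19.75 in HS, 8.41, 17.91 and 10.96 in HS+A10, 3.82, 2.89 and 3.57 in A10-FMT, and Con-FMT had 30.44, 17.30 and 12.31. The HS libraries were all above those of Con, by 1.15 ± 0.34, and all above those of HS+A10, which lay 1.14 ± 0.34 lower than HS and overlapped Con. In A10-FMT every library was below all 15 others, and the group differed from HS by -2.69 ± 0.34 and from Con by -1.53 ± 0.34. The ratio of the means of Con and A10-FMT was 3.43. The group order of Cdkn1a was HS, Con-FMT, HS+A10, Con, A10 and A10-FMT, and only the last step had no overlap between neighbours.

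Plk2 (chromosome 13, 110395046 to 110400844, plus strand) encodes a polo-like kinase with a part in centriole duplication. Plk2 was at 2.31, 2.33 and 2.23 RPKM in Con, 1.52, 2.03 and 1.78 in A10, 3.92, 2.84 and 2.19 in HS, 4.26, 4.30 and 3.93 in HS+A10, 2.21, 1.28 and 1.11 in A10-FMT, and Con-FMT had 2.17, 1.61 and 2.92. It was highest in HS+A10, whose libraries were above all others. HS overlapped Con, with a difference of 0.25 ± 0.19, and A10-FMT was below Con throughout, with a difference of -0.40 (SE 0.19). Both of these separations were narrow, at 3.93 RPKM in HS+A10 against 3.92 in HS and at 2.21 in A10-FMT against 2.23 in Con.

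Among the genes of cell death, Phlda3 (chromosome 1, 135766119 to 135769136, plus strand) encodes a protein that competes with Akt for membrane lipids and so restrains survival signalling. Phlda3 was at 0.23, 0.19 and 0.28 RPKM in Con, 0.05, 0.14 and 0.23 in A10, 6.52, 5.06 and 2.32 in HS, 5.43, 4.80 and 3.33 in HS+A10, 1.40, 0.88 and 1.44 in A10-FMT, and Con-FMT had 1.79, 2.47 and 2.78. These are low levels with wide relative gaps: HS was 2.11 ± 0.25 above Con and HS+A10 was 2.26 ± 0.25 above A10. Its order was HS and HS+A10, which overlapped, then Con-FMT, A10-FMT, and Con with A10. No library crossed these steps except HS replicate 3, which at 2.32 RPKM lay inside the range of Con-FMT and without which the difference between HS and Con was 2.45.

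Eda2r (chromosome X, 97333840 to 97377216, minus strand) encodes a receptor of the tumor necrosis factor family. Eda2r was at 0.01, 0.06 and 0.04 RPKM in Con, 0.06, 0.03 and 0.05 in A10, 1.32, 0.87 and 0.58 in HS, 2.12, 1.72 and 1.25 in HS+A10, 0.70, 0.58 and 0.42 in A10-FMT, and Con-FMT had 0.85, 1.21 and 1.02. The lowest STZ library was at 0.42 RPKM and the highest of the 6 others at 0.06. Because the values of Con and A10 are a few steps of the second decimal, no fold is given. On the log2 scale HS was 0.87 ± 0.14 above Con and HS+A10 was 1.35 ± 0.14 above A10.

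Aen (chromosome 7, 78895854 to 78911209, plus strand) encodes an exonuclease that digests DNA and RNA in dying cells. Aen was at 7.25, 5.90 and 6.30 RPKM in Con, 6.80, 5.23 and 5.0 in A10, 15.59, 15.48 and 12.78 in HS, 16.26, 16.24 and 12.93 in HS+A10, 9.19, 7.86 and 7.78 in A10-FMT, and Con-FMT had 12.78, 14.36 and 14.95. HS and Con differed by 1.06 ± 0.12 and HS+A10 and A10 by 1.28 ± 0.12, in both cases without overlap. Like Ccng1, Aen was at an intermediate level in A10-FMT, which overlapped neither Con nor the other STZ groups.

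Zmat3 (chromosome 3, 32334792 to 32366014, minus strand) encodes a zinc finger protein that binds RNA. Zmat3 was at 0.72, 0.68 and 0.58 RPKM in Con, 0.61, 0.68 and 0.63 in A10, 1.80, 1.89 and 1.44 in HS, 1.55, 1.63 and 1.40 in HS+A10, 0.93, 0.64 and 0.67 in A10-FMT, and Con-FMT had 1.14, 1.42 and 1.59. The libraries of HS, HS+A10 and Con-FMT were all above those of Con, A10 and A10-FMT, and within each of these 2 sets the groups overlapped. HS was 0.70 ± 0.08 above Con, and A10-FMT differed from Con by 0.07 ± 0.08.

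Polk (chromosome 13, 96480690 to 96542579, minus strand), the DNA repair gene of the set, encodes the translesion polymerase kappa, which copies past damaged bases. Polk was at 0.93, 0.84 and 0.79 RPKM in Con, 1.07, 0.98 and 1.08 in A10, 1.92, 1.95 and 1.44 in HS, 1.81, 2.24 and 1.75 in HS+A10, 1.28, 1.02 and 1.18 in A10-FMT, and Con-FMT had 1.20, 1.40 and 2.16. All 4 STZ groups were above Con, but A10-FMT overlapped A10, whose libraries were above Con by 0.14 ± 0.12. HS was above Con by 0.58 ± 0.12 and HS+A10 above A10 by 0.52 ± 0.12.

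**Figure D2:**
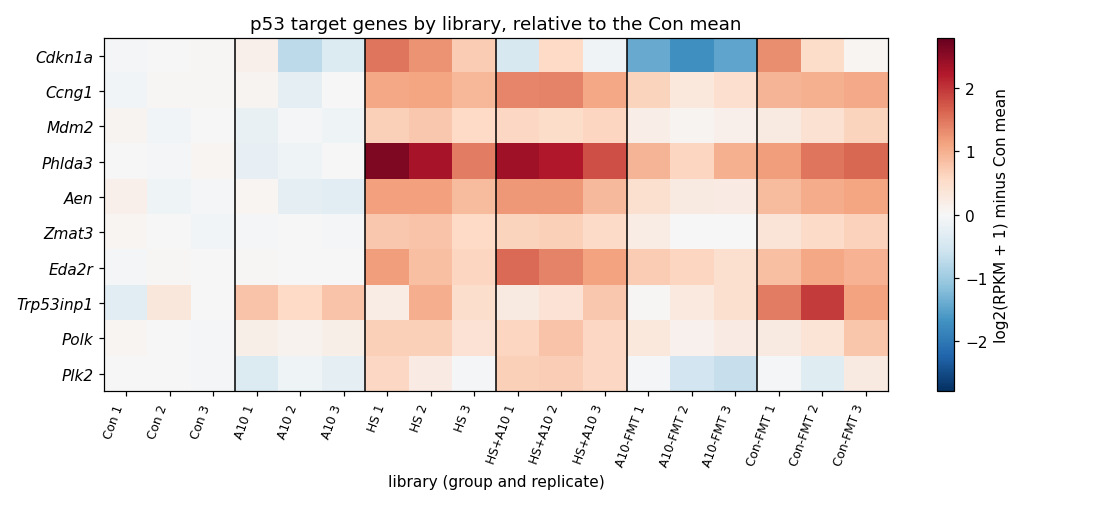
Each library (columns, in groups of 3) minus the mean of the Con libraries, in log2(RPKM + 1), for the 10 genes (rows), with red above and blue below the Con mean. Red runs through HS, HS+A10 and Con-FMT in most rows and is paler in A10-FMT, where the row of Cdkn1a is blue, with a mean of -1.53.

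Comparison by comparison, 7 of the 9 genes that passed the filter were higher in all HS libraries than in all Con libraries, where 32.6% of all genes tested were higher and 4.17% lower throughout. This count describes the choice of the genes as much as the mice, and nothing is read from it. The same holds for the median difference of the 9, 0.70 against 0.14 over all genes. After scaling to the same median the 10 differences lay between 0.12 for Plk2 and 2.01 for Phlda3, all of them positive. Without replicate 3 of Con and A10, a choice made after seeing the data, the 10 differences lay between 0.24 for Plk2 and 2.14 for Phlda3.

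The comparison of HS+A10 with A10 is the second one made by diet and STZ, in mice given AOS, and it shares no library with the first. Ccng1, Mdm2, Phlda3, Aen, Zmat3, Polk, Plk2 and Eda2r were higher in all HS+A10 libraries. Of the 9 that passed the filter 7 were thus separated, against 26.9% of all genes higher and 16.1% lower throughout. This count has the same limit as that for HS and Con. Nothing is read from it or from the counts of these genes in the comparisons below. Cdkn1a and Trp53inp1 overlapped, with differences of 0.33 ± 0.34 and -0.24 ± 0.25. Without replicate 3 of Con and A10 the differences of the other 8 lay between 0.53 for Polk and 2.32 for Phlda3. The change made by diet and STZ with AOS minus that without it was -0.82 for Cdkn1a (SE 0.48), -0.81 for Trp53inp1 and 0.65 for Plk2.

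A10-FMT and HS share the diet and STZ. No transfer by mouth is described for HS mice, so the procedure and the microbiota cannot be told apart in this comparison. Cdkn1a, Ccng1, Mdm2, Phlda3, Aen, Zmat3 and Polk were lower in all A10-FMT libraries than in all HS libraries, 7 of the 9 that passed the filter, where 32.8% of all genes were lower and 4.59% higher throughout. Apart from Cdkn1a the differences ran from -0.28 for Eda2r to -1.26 for Phlda3 on the log2(RPKM + 1) scale, which understates those of the low genes. As ratios of the means of HS and A10-FMT, they ran from 1.30 for Trp53inp1 to 3.74 for Phlda3. The median over the 9 was -0.63 against -0.16 over all genes, and nothing is read from that either. Scaled to the same median, the 10 differences lay between -0.14 for Trp53inp1 and -2.52 for Cdkn1a. The level in A10-FMT was that of Con for some of the genes only. Ccng1, Mdm2, Phlda3, Aen, Polk and Eda2r were still above Con in all A10-FMT libraries, 5 of the 9 that passed against 14.3% of all genes, and Cdkn1a and Plk2 were below Con throughout, 2 of the 9 against 17.7%.

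Con-FMT mice got microbiota from control donors. Their libraries overlapped those of HS for 9 of the 10 genes, the exception being Trp53inp1, which was higher by 0.93 ± 0.25. This is 1 of the 9 that passed the filter, against 7.11% of all genes higher throughout, and none was lower throughout, against 27.9%. Among the 9 genes that overlapped HS, the differences ran from -0.68 ± 0.25 for Phlda3 to 0.09 ± 0.14 for Eda2r, with Eda2r alone above 0. Plk2 was at -0.30 ± 0.19, Mdm2 at -0.23 ± 0.08 and Zmat3 at -0.19 ± 0.08. The small differences of Ccng1 and Aen from HS, -0.04 and -0.05, became 0.07 and 0.05 after scaling to the same median, so they have no direction. Without Con-FMT replicate 3, the library with pancreatic genes, the difference of Trp53inp1 was 1.12 and that of Cdkn1a was -0.24, in place of -0.53. Set side by side, A10-FMT was below Con-FMT in every library for 8 of the 10 genes, Polk and Plk2 being the exceptions. Of the 9 that passed, 7 did so, against 19.4% of all genes. The differences ran from -0.30 for Mdm2 to -2.16 for Cdkn1a, and both groups were compared with the same HS libraries above.

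**Figure D3:**
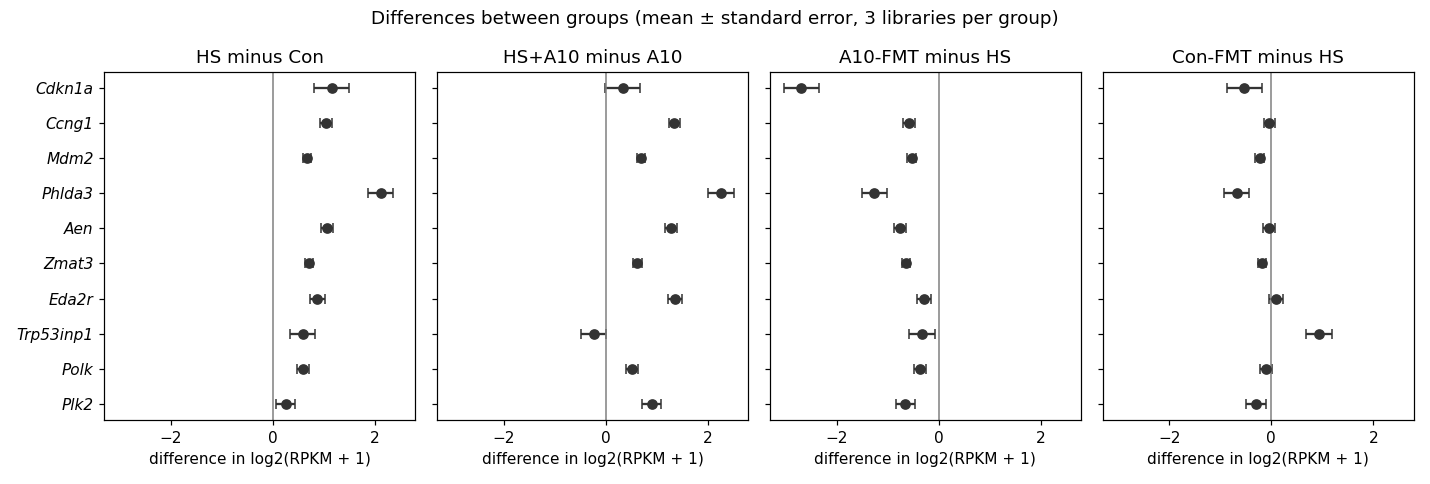
Differences between group means of log2(RPKM + 1) (x axis) for the 10 genes (y axis) in 4 comparisons, with points for the difference. Bars are the standard error for 3 libraries per group, from a spread pooled over all 6 groups, so each gene has the same bar in every panel. In A10-FMT minus HS every point is to the left of 0, from -0.28 to -2.69. In Con-FMT minus HS the points run from -0.68 for Phlda3 to 0.93 for Trp53inp1.

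AOS given with the diet and STZ did not have the pattern of A10-FMT. HS+A10 and HS overlapped for 8 of the 10 genes. Among these 8 the differences ran from -0.10 for Mdm2, Zmat3 and Trp53inp1 to 0.49 ± 0.14 for Eda2r, with Ccng1 at 0.24 ± 0.11. Cdkn1a was lower in all HS+A10 libraries and Plk2 higher in all, by 0.40 ± 0.19, where 15.7% and 11.6% of all genes were. The differences of Phlda3 and Aen, 0.03 and 0.05, turned negative when HS replicate 3, HS+A10 replicate 1 or HS+A10 replicate 2 was left out. Between A10 and Con, Trp53inp1 and Polk were higher throughout (19.6% of all genes were) and Plk2 lower throughout, with a difference of -0.25 (5.27% of all genes were lower).

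Library by library the genes differed in how far they ran together. Over the 18 libraries, the Pearson correlations of log2(RPKM + 1) among the 28 pairs without Cdkn1a and Trp53inp1 had a median of 0.91, and Ccng1 and Aen had an r of 0.97. These values contain the group differences that all of them share. With the group means removed, the median over those 28 pairs was 0.57, with all 28 above 0 and the highest, 0.82, for Zmat3 and Polk. The 9 pairs with Cdkn1a had a median of 0.10 by this measure and the 9 with Trp53inp1 a median of -0.22. These 2 genes were set apart after their values had been seen, and libraries of 1 group share depth and tissue makeup, so the correlations are descriptions.

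The genes whose pattern was most like that of Cdkn1a over the 18 libraries were Sec13 and Copa (coat proteins of vesicles), Psmd4 (a proteasome subunit), Nup62 (nuclear pore) and Rexo2 (a mitochondrial exonuclease), with r between 0.88 and 0.89. Their amplitude was much smaller. Sec13, for instance, had a mean of 52.2 RPKM in HS and 42.2 in Con, 47.1 in Con-FMT, 40.7 in HS+A10 and 36.9 in A10-FMT. Within groups the most alike were Map3k11, Elovl5, Epha2, Mgat4b and Ncmap, with r from 0.83 to 0.89. Of the 8 other p53 targets of the set that passed the filter, Zmat3 had the highest r with Cdkn1a over the 18 libraries, 0.62.

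p53 itself was not called in any comparison, a call being an adjusted p under 0.05 by limma. Trp53 mRNA was between 11.43 and 17.33 RPKM in all 18 libraries, and HS and Con differed by 0.16 (SE 0.12, limma adjusted p = 0.351). Mdm4, the partner of MDM2 in holding p53 down, was between 5.42 and 7.95 RPKM, with a difference of 0.02 (SE 0.10, limma adjusted p = 0.925). Of the 13 genes that passed the filter on the list of p53 and its regulators, 0 were called between HS and Con by limma, with 2 at an unadjusted p under 0.05, against 15.9% of all genes called higher and 1.87% lower.

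Beyond the 10 genes, 66 others of the pathway were listed from general knowledge (regulators, further targets and cell cycle genes held down through p21), of which 43 passed the filter. Between HS and Con, limma called 7 of the 43 higher and 1 lower, close to the 15.9% and 1.87% of all genes, and 18 had an unadjusted p under 0.05. Their median difference was 0.19. Without replicate 3 of Con and A10 the count was 5, all higher, and without Con replicate 1 it was 4. Gdf15, a stress hormone of the liver, rose from 3.47, 1.73 and 2.75 RPKM in Con to 15.68, 10.80 and 8.60 in HS, a change of 1.79 (SE 0.27, limma adjusted p = 0.000834). Abhd4 and Sesn2 each rose by 0.62, with limma adjusted p = 0.000390 and 0.00857. Sesn2 encodes a sestrin, which restrains growth signalling. Among the apoptosis targets Ei24 rose by 0.54 and Triap1 by 0.41, while Bbc3, which encodes the cell death protein PUMA, fell by 0.62 (limma adjusted p = 0.0470), a call that was lost with a pseudocount of 0.1. Xpc, which recognizes damaged DNA, rose by 0.44.

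HS+A10 against A10 gave 10 of the 43 higher and 3 lower by limma, against 13.6% and 7.28% of all genes, with 18 at an unadjusted p under 0.05. Without replicate 3 of Con and A10 the counts were 5 and 3. Gdf15 rose by 1.57 (limma adjusted p = 0.00103), Sesn2 by 1.07 (adjusted p = 0.000156), Triap1 by 0.56 and Bax, a pore-forming protein of apoptosis, by 0.47 (adjusted p = 0.0339). Bbc3 fell by 1.05, Btg1 by 0.93 and Ppm1d, a phosphatase that switches p53 off, by 0.41. Over the 12 STZ and 6 other libraries, Triap1 and Sesn2 were above throughout and Bbc3 and Ppm1d below throughout, 2 of 43 in each direction, against 1.61% and 1.05% of all genes. For the difference between both comparisons limma called 0 of the 43, with 3 at an unadjusted p under 0.05, against 0.00980% of all genes called higher and 0 called lower.

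A10-FMT compared with HS had 7 of the 43 lower and 1 higher by limma, where 21.0% of all genes were called lower and 2.09% higher, so that the lower share was no larger than that of the liver as a whole. Gdf15 fell by 1.83 to 2.27, 3.16 and 2.12 RPKM (SE 0.27, limma adjusted p = 0.000713), back inside the range of Con. Bbc3, Gls2, Bax and Fas fell as well, by 0.72, 0.69, 0.63 and 0.63, and Ulk1, a kinase of autophagy, rose by 0.56. After scaling to the same median, 1 was called higher and 1 lower, and without A10-FMT replicate 3 the count was 1 higher and 2 lower. Con-FMT compared with HS had 4 higher and 5 lower, against 4.61% and 19.0% of all genes, and 3 of those that rose are targets of growth arrest, out of 4 tested on that list. Btg2 rose from 3.15, 4.56 and 2.78 RPKM in HS to 20.46, 24.19 and 17.89 in Con-FMT, by 2.29 (SE 0.35, limma adjusted p = 0.000423), Gadd45a by 1.62 (adjusted p = 0.00963) and Plk3 by 1.40 (adjusted p = 0.0284). Gadd45a was uneven, at 2.50, 1.54 and 0.83 RPKM in HS and 7.18, 2.53 and 15.51 in Con-FMT. Its highest value was in Con-FMT replicate 3, the library with pancreatic genes. Gadd45a averaged 3.72 RPKM in HS+A10 and 3.95 in A10-FMT. Trp53inp1 was highest in Con-FMT too. Without HS replicate 3 the counts were 2 and 3. HS+A10 compared with HS had 3 higher and 0 lower by limma, against 2.95% and 4.37% of all genes, with 9 at an unadjusted p under 0.05, and the 3 were Sesn2, Pank1 and Ulk1, of which none was called without HS replicate 3 or without HS+A10 replicate 1. For A10 against Con, limma called 0, with 10 at an unadjusted p under 0.05, against 0.0490% of all genes called higher and 0.0196% lower.

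**Figure D4:**
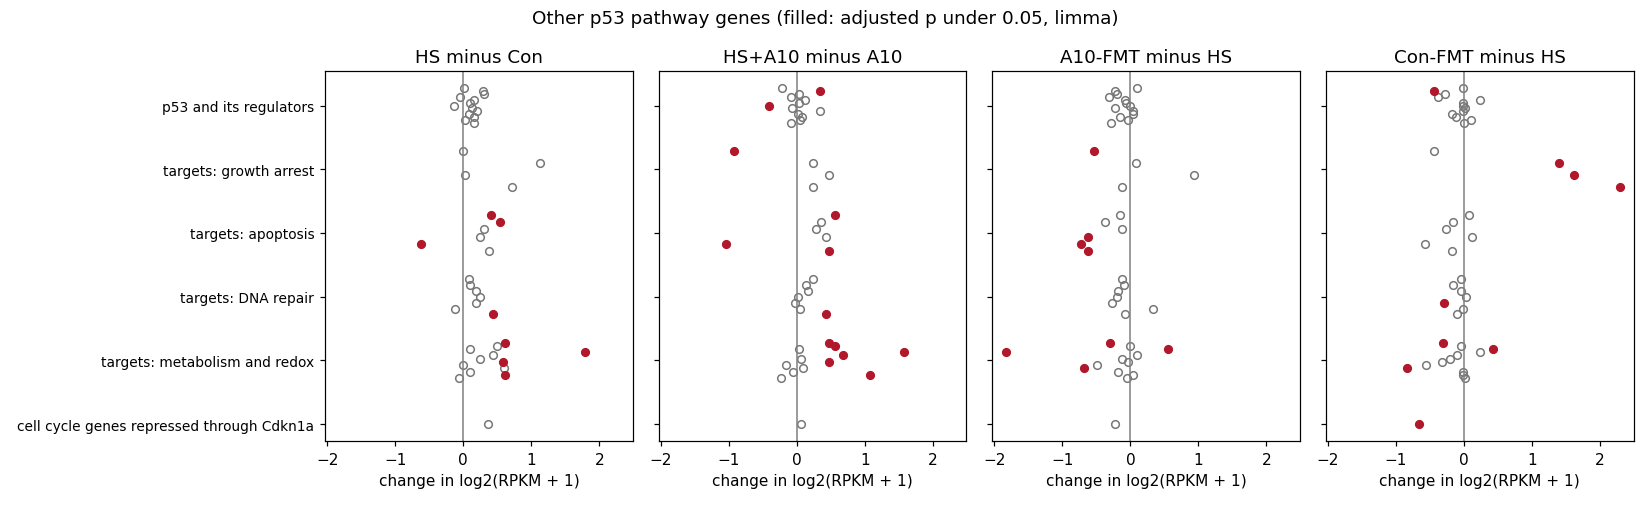
Change in log2(RPKM + 1) (x axis) of the 43 other p53 pathway genes tested, by list (y axis), in 4 comparisons, with filled points for genes at a limma adjusted p under 0.05. The filled point farthest to the right in HS minus Con is Gdf15 at 1.79, which is also farthest to the left in A10-FMT minus HS at -1.83, and the filled points to the right in Con-FMT minus HS are led by Btg2 at 2.29.

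Of the relatives of p21, Cdkn1b and Cdkn2d passed the filter and were not called in any comparison by limma, and Cdkn2c fell by 0.73 between A10 and HS+A10 (adjusted p = 0.0218) and by 0.68 between HS and Con-FMT (adjusted p = 0.0288). Cdkn1c, Cdkn2a and Cdkn2b were below the filter, with means of 0.813, 0.0483 and 0.177 RPKM. Of the 12 cell cycle genes held down through p21, 1 passed the filter, Cenpa, which fell by 0.66 between HS and Con-FMT (limma adjusted p = 0.00581), so that this arm of the response could not be followed in these livers. Bax and Bcl2 are genes whose proteins the study measured in liver. The log2 difference of HS from Con for Bax was 0.37 (SE 0.15, limma adjusted p = 0.0908), short of the threshold, and Bcl2 was below the filter with a mean of 0.217 RPKM.

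Other features of the tissue moved with some of these groups. Dbp, an output gene of the circadian clock that swings strongly over the day, was at 0.36 to 3.41 RPKM in all libraries of Con, A10 and HS and at 47.26 to 98.80 in those of HS+A10, A10-FMT and Con-FMT. Con, A10 and HS were not alike in every clock gene. Nr1d1, for instance, was at 1.22 to 3.68 RPKM in Con, 10.03 to 30.70 in A10 and 17.17 to 26.96 in HS. Of the 10 clock genes listed, limma called 2 higher and 1 lower in HS than in Con, against 15.9% and 1.87% of all genes. Between A10 and Con it called 2 higher, against 0.0490% of all genes. The time of sampling is not given in the sources used here. HS+A10 and HS differed in Dbp by 4.56 and overlapped in Ccng1, Mdm2, Phlda3, Aen, Zmat3, Eda2r and Polk. The differences of these genes ran from -0.10 for Mdm2 and Zmat3 to 0.49 for Eda2r. Cdkn1a was lower in HS+A10 and A10-FMT than in HS, and its range in Con-FMT was 12.31 to 30.44 RPKM at the same high Dbp. The part of sampling time in the values of Cdkn1a and of the other p53 targets was not tested.

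**Figure D5:**
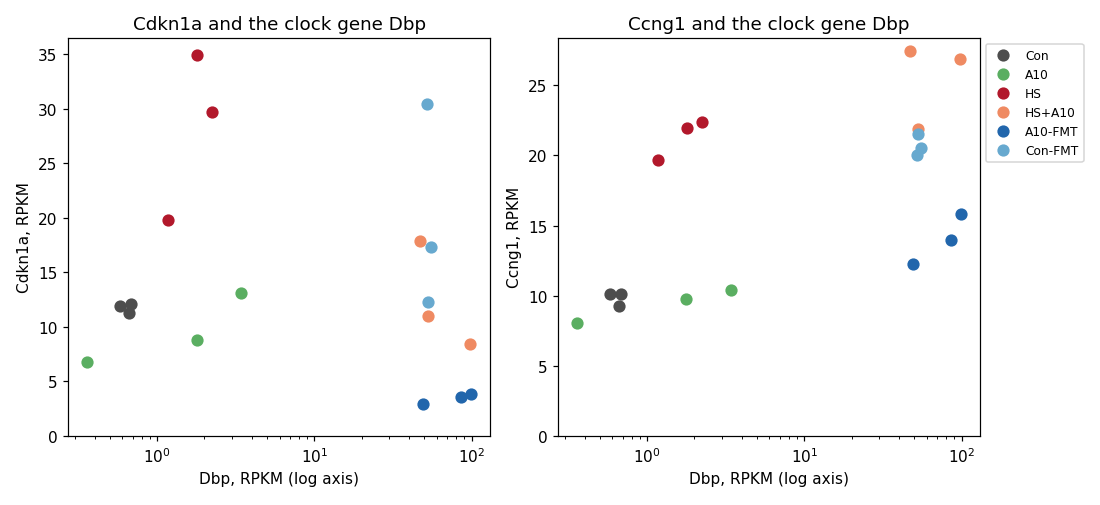
RPKM of Cdkn1a (left y axis) and Ccng1 (right y axis) against RPKM of the clock gene Dbp (x axes, log scale) in the 18 libraries, with 1 colour per group. The libraries fall into a low range of Dbp, up to 3.41 RPKM, and a high one, from 47.26 RPKM, and Ccng1 is above 19 RPKM for HS on the low side and for HS+A10 and Con-FMT on the high side.

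In A10-FMT, 4 of the 7 macrophage markers and 2 of the 6 markers of sinusoidal endothelium were called lower than in HS by limma. Of all genes, 21.0% were. The sum of all 7 macrophage markers was 43.1 to 52.8 RPKM in A10-FMT against 62.7 to 107 in HS. In HS+A10, endothelial markers were called higher than in A10, 5 of 6 against 13.6% of all genes. Over all 6 the sums were 58.4 to 71.2 RPKM against 39.8 to 50.3. Of the 7 stellate cell markers, 3 were called higher in HS+A10 than in A10, against 13.6% of all genes. Only 1 of the 7 was called higher in HS than in Con, close to the 15.9% of all genes. The hepatocyte markers Alb, Apoa1, Ttr, Serpina1a, Cps1 and Fga were abundant in every library and also moved. In HS+A10, 3 of these 6 (Apoa1, Ttr and Fga) were called lower than in A10, against 7.28% of all genes. The sum of all 6, most of it Alb, was 41010 to 43600 RPKM against 48590 to 55360. In A10-FMT, 2 of the 6 (Cps1 and Fga) were called lower than in HS, against 21.0% of all genes. Summed over all 6, the level was 38740 to 49300 RPKM in A10-FMT against 35710 to 41460 in HS. In HS, 1 of the 6, Ttr, was called lower than in Con, against 1.87% of all genes. Red cell genes had a sum of 2886 to 10040 RPKM in HS and 1256 to 1972 in Con. The part of these cell types in the differences of the p53 targets was not tested. In Con-FMT, glucocorticoid-responsive genes were called higher than in HS, 5 of 8 against 4.61% of all genes, with Fkbp5 at 14.72 to 23.97 RPKM against at most 7.80 in all other libraries, beside the high values of Trp53inp1 and Btg2. This relation was not tested.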

How the data were processed

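Liver mRNA of 18 libraries (6 groups of 3) was enriched on oligo(dT) beads and sequenced on an Illumina instrument. Per the paper's methods the authors mapped reads to reference genes with SOAPaligner, while the submitters' processing notes name Bowtie 0.12.2 and mm10. The authors computed RPKM from the reads of each gene and deposited them as 1 table with 2 decimals. Read numbers are unknown, so no counting interval or detection limit was computed, and precision rests on 3 libraries per group. Low values and folds of genes below about 1 RPKM are the least certain.

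Groups came from the labels. The members and the gene lists were chosen with earlier results of these data known, and lists were written from general knowledge. RPKM was transformed as log2(RPKM + 1), and genes with a mean of 1 RPKM or more over the 18 libraries were fitted with limma 3.58.1 in R 4.3.3, with 6 group means and a variance trend. P-values were two-sided, with Benjamini-Hochberg adjustment over 10204 genes, and calls were made under 0.05. DEGseq, the authors' test, was not used because it ignores the spread between replicates. Members are given as values, differences and standard errors from the pooled spread within groups, without p-values or calls. Background percentages count all genes tested in the same way.

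Every member is named. Of the other lists, Trp53, Mdm4, the CDK inhibitors, Bax and Bcl2 are named whatever their values, and otherwise called genes, at most the 3 of largest change per list, direction and comparison, besides Dbp and the 5 genes most correlated with Cdkn1a. 1 gene under this rule is not reported here. Gene positions are from the GENCODE annotation of GRCm38, and promoters from RefSeq (GRCm38.p6). Of the symbols, 26 had become dates and 3 were repeated. The fit was checked on simulated data.

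Alternatives tried were: pseudocount 0.1, no filter, a mean of 5 RPKM, quantile normalization, a common median, a replicate block, 2 groups per fit, no variance trend, the authors' threshold and leaving out each replicate. A fit of 12 libraries and a fit without replicate 3 of Con and A10 were chosen after seeing the data.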

Additional observations from a re-analysis of the deposited data

How the results depend on the processing

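Of 630 values of the members under the alternatives, 592 moved by less than the spread within groups and 38 by more. Sign changes occurred in differences that were at most 0.11 in size with the settings of the report. The largest value after such a change was -0.31, from 0.03, for Phlda3 in HS+A10 against HS without HS replicate 3. Of the 38, 17 came from the pseudocount of 0.1, which raised low genes (Eda2r in HS against Con from 0.87 to 2.86), 16 from scaling and 5 from leaving out a replicate. For the 43 other pathway genes the counts called were 8 for HS against Con, 8 for A10-FMT against HS, 9 for Con-FMT against HS, 3 for HS+A10 against HS and 13 for HS+A10 against A10. Without a filter HS+A10 against HS gave 1, and at a mean of 5 RPKM Con-FMT against HS gave 5. A common median gave 5 for HS against Con and 2 for A10-FMT against HS, and quantile normalization gave 2 for the latter. With the authors' threshold HS+A10 against HS gave 0 and each of the other 4 gave 1. With 2 groups per fit, A10-FMT against HS gave 4, Con-FMT against HS 1 and HS+A10 against HS 0. Without replicate 3 of Con and A10, chosen after seeing the data, HS against Con gave 5 and HS+A10 against A10 gave 8. The fit of 12 libraries, also chosen after seeing the data, gave 6, 6 and 7 for the first 3. Leaving out each replicate gave 4 to 12 for HS against Con (4 without Con replicate 1), 8 to 11 for HS+A10 against A10 (8 without A10 replicate 2 or HS+A10 replicate 2), 3 to 11 for A10-FMT against HS (3, 4 and 5 without A10-FMT replicate 3, HS replicate 3 and A10-FMT replicate 2), 5 to 11 for Con-FMT against HS (5 without HS replicate 3) and 0 to 3 for HS+A10 against HS (0 without HS replicate 3 or HS+A10 replicate 1). For A10 against Con and for the difference of differences, 0 were called with the settings of the report and with each alternative run. Over all genes, calls split 1618 higher and 191 lower for HS against Con as deposited, and 397 and 487 with a common median. For A10-FMT against HS they split 213 and 2145, and then 640 and 516. For Con-FMT against HS the split was 470 and 1943, and then 859 and 1238. For HS+A10 against HS it was 301 and 446, and then 579 and 356, and for HS+A10 against A10 it was 1388 and 743, and then 1239 and 1151. The cause of these shifts was not tested.

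The replicate numbers of the labels were not shown to pair libraries, since deviations of libraries with the same number correlated at -0.09 to 0.26 and no comparison had every pair above 0.1. With a replicate block, 8 of the 43 genes were called for HS against Con, 7 for A10-FMT against HS, 10 for Con-FMT against HS, 3 for HS+A10 against HS and 13 for HS+A10 against A10.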

Other observations

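The mean of the 9 members that passed the filter, each first brought to the same mean and spread, was compared with every other gene over the 18 libraries. This measure was chosen after seeing the data. The genes most like it were Atp6v1d (a subunit of the vacuolar proton pump), Tmem43, Scp2 (a peroxisomal carrier of lipids), Dnaja3 (a mitochondrial chaperone) and Tmed5, with Pearson r from 0.92 to 0.94. Tmem43 averaged 2.79 RPKM in Con, 2.87 in A10, 7.98 in HS, 6.48 in HS+A10, 3.73 in A10-FMT and 4.93 in Con-FMT. Of the listed p53 pathway genes, Gdf15 came nearest, at rank 7 with r = 0.92, followed by Triap1 at 0.83, Bax at 0.81 and Ei24 at 0.79. Others ran the opposite way, with r = -0.61 for Ppm1d, -0.44 for Bbc3 and -0.40 for Btg1, and Trp53 itself had 0.36. With the group means removed, r was 0.55 for Gdf15, 0.07 for Triap1, 0.56 for Bax, 0.37 for Ei24 and 0.20 for Ppm1d. The 18 libraries share their groups, so these values are descriptions.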
